A study of Mus musculus with 34 samples.

Results

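The genes described here encode the machinery of cyclic AMP signalling: the adenylyl cyclases that make cAMP, the phosphodiesterases that degrade it, the subunits of protein kinase A (PKA), the A-kinase anchoring proteins (AKAPs), and the transcription factor CREB with its coactivators. Genes were taken by symbol, as those named Adcy, Pde or Akap with a number (for Pde, also a letter from a to d), the Prkaca, Prkacb and Prkar genes, and Creb1, Crebbp, Crtc1, Crtc2 and Ep300. Crem was not analysed here. The hippocampal tables listed 49 such genes among 11531, comprising 8 adenylyl cyclases, 18 phosphodiesterases, 2 catalytic and 4 regulatory PKA subunits, 12 AKAPs and 5 genes of the CREB group. Under the same symbols the table of hippocampal culture listed 43 genes and that of embryonic stem cells 36.

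In neurons, cAMP made after stimulation of G protein-coupled receptors, or by calcium-sensitive cyclases, binds the regulatory subunits of PKA and releases the catalytic subunits. AKAPs hold the kinase near its substrates, phosphodiesterases end the signal, and PKA, among other kinases, phosphorylates CREB, which then recruits the coactivators CBP (Crebbp) and p300 (Ep300). CRTC proteins are further coactivators that move to the nucleus on calcium and cAMP signals. In the hippocampus this pathway is a textbook requirement for lasting synaptic potentiation and for long-term memory of a conditioned context.

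Ribosome-protected fragments (RPF, footprints of translating ribosomes) and RNA were sequenced from hippocampi of C57BL/6N mice. The groups were control mice, which received no stimulus, and mice taken 5 min, 10 min, 30 min or 4 h after contextual fear conditioning, with 3 RPF and 3 RNA libraries in each of the 5 groups. Mice of all groups were single-caged and handled for 3 min a day on 4 days beforehand. Conditioned mice spent 148 s in the chamber, received a foot shock of 2 s and went back to the home cage 30 s later. All lysates, those of cultured cells included, held cycloheximide at 100 µg/mL, which keeps ribosomes on mRNA. Primary hippocampal culture of the same strain and the mouse embryonic stem cell line A3-1, which had been given a siRNA against luciferase for 48 h, each had 1 RPF and 1 RNA library. The sources used here state neither the age of the mice nor whether replicates of a group were separate mice. The p-values therefore rest on the spread between libraries, part of which may be technical. Values are called signal: reads divided by 1 number per library. Signals were compared between libraries for the same gene and not between genes, except as the ratio of footprints to RNA.

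Tissue libraries held 14240563 to 30480009 reads on listed genes in RPF and 16814796 to 25515210 in RNA. All 9 hippocampal neuron markers and all 5 general neuronal markers were listed in tissue. In culture 7 of the 9 and 5 of the 5 were listed, the general ones with a summed RNA signal of 95.04. It also had 6 of 7 astrocyte markers, with a sum of 222, and 3 of 8 oligodendrocyte markers, with a sum of 1.36. Stem cells had 7 of 7 pluripotency markers, with a summed RNA signal of 343. All 11 markers of the choroid plexus, the epithelium that borders the hippocampus, were listed in tissue, and their summed RPF signal ran from 69.2 to 2101 between libraries. In whole tissue, fewer cells of a type and less RNA per cell cannot be told apart.

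Of the 49 genes, 35 had a mean RPF signal of at least 1 over the 15 libraries and 43 a mean RNA signal of at least 1, and these were tested. Each time was compared with control by limma on log2(signal + 1), with Benjamini-Hochberg adjustment over all genes tested and a threshold of 0.05. Translational efficiency (TE), or footprints per RNA, was tested as the interaction of the 2 kinds of library for the 35 genes that passed in both.

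No gene of the pathway changed past the threshold at any time in footprints, RNA or TE. The background was the same, since none of 7898 genes in RPF, 8061 in RNA or 7103 in TE passed at any of the 4 times (0%). At an unadjusted p under 0.05, 0, 1, 0 and 0 of the 35 genes stood out in RPF at 5, 10 and 30 min and 4 h, where 0.646%, 0.329%, 0.253% and 0.532% of all genes did. The 1 gene was lower, and 0 were higher (0.076% of all genes at 10 min). In RNA 2, 2, 3 and 0 of 43 did, all of them higher, where 0.707%, 1.71%, 1.33% and 2.1% of all genes were higher (1.04%, 1.86%, 1.46% and 2.59% in either direction). In TE no gene of the pathway had an unadjusted p under 0.05, where 0.704%, 0.817%, 0.225% and 0.619% of all genes did. Libraries with the same replicate number deviated together, and a fit with the number as a block called 0 to 4 genes per comparison over the whole table, none of them in the pathway. The smallest adjusted p of a pathway gene in that fit was 0.178, for Akap11 RNA at 4 h. With the block, 1, 2, 0 and 2 of 35 pathway genes had an unadjusted p under 0.05 in RPF at the 4 times. Of all genes, 6.89%, 3.28%, 2.76% and 6.04% did. In RNA 4, 5, 5 and 7 of 43 did, where 6.6%, 12%, 10% and 16.3% of all genes did. In TE 1, 7, 1 and 1 of 35 did, where 5.59%, 5.7%, 2.42% and 6.35% of all genes did. The 7 in TE at 10 min, the largest of the 4 TE counts, were all lower (5.39% of all genes were lower). They were Adcy5, Akap5, Akap12, Pde10a, Pde4d, Prkar2a and Akap6, with changes from −0.16 to −0.13, and the smallest adjusted p among them was 0.780.

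Widths of the intervals are given on the log2(signal + 1) scale, which understates the fold change of genes with a low signal. The median half-width of the 95% interval over the pathway genes was 0.19 log2 units in RPF, 0.17 in RNA and 0.28 in TE, and 0.11, 0.09 and 0.14 with the block. SE of single genes below are from the fit without the block unless it is named. In that fit the share of all genes with an unadjusted p under 0.05 lay below that level at every time. It thus called fewer genes than its nominal rate. Fitted changes ran from −0.19 to 0.14 in RPF and from −0.11 to 0.18 in RNA. Median changes over the pathway genes in RPF were −0.02, −0.03, 0.00 and 0.00 at 5, 10 and 30 min and 4 h, with 13, 8, 17 and 18 of 35 higher than control, where 47.3%, 50.3%, 60.8% and 51.2% of all genes were. In RNA 24, 27, 29 and 31 of 43 were higher, where 60.04%, 71.02%, 71.6% and 66.2% of all genes were, at medians of 0.00, 0.02, 0.02 and 0.04, where all genes had medians of 0.01, 0.03, 0.03 and 0.03. In TE, 13, 8, 13 and 12 of 35 were higher than control, with the lowest median, −0.06, at 10 min. At that time all genes had a TE median of −0.03, with 32.1% of them higher.

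**Figure D1:**
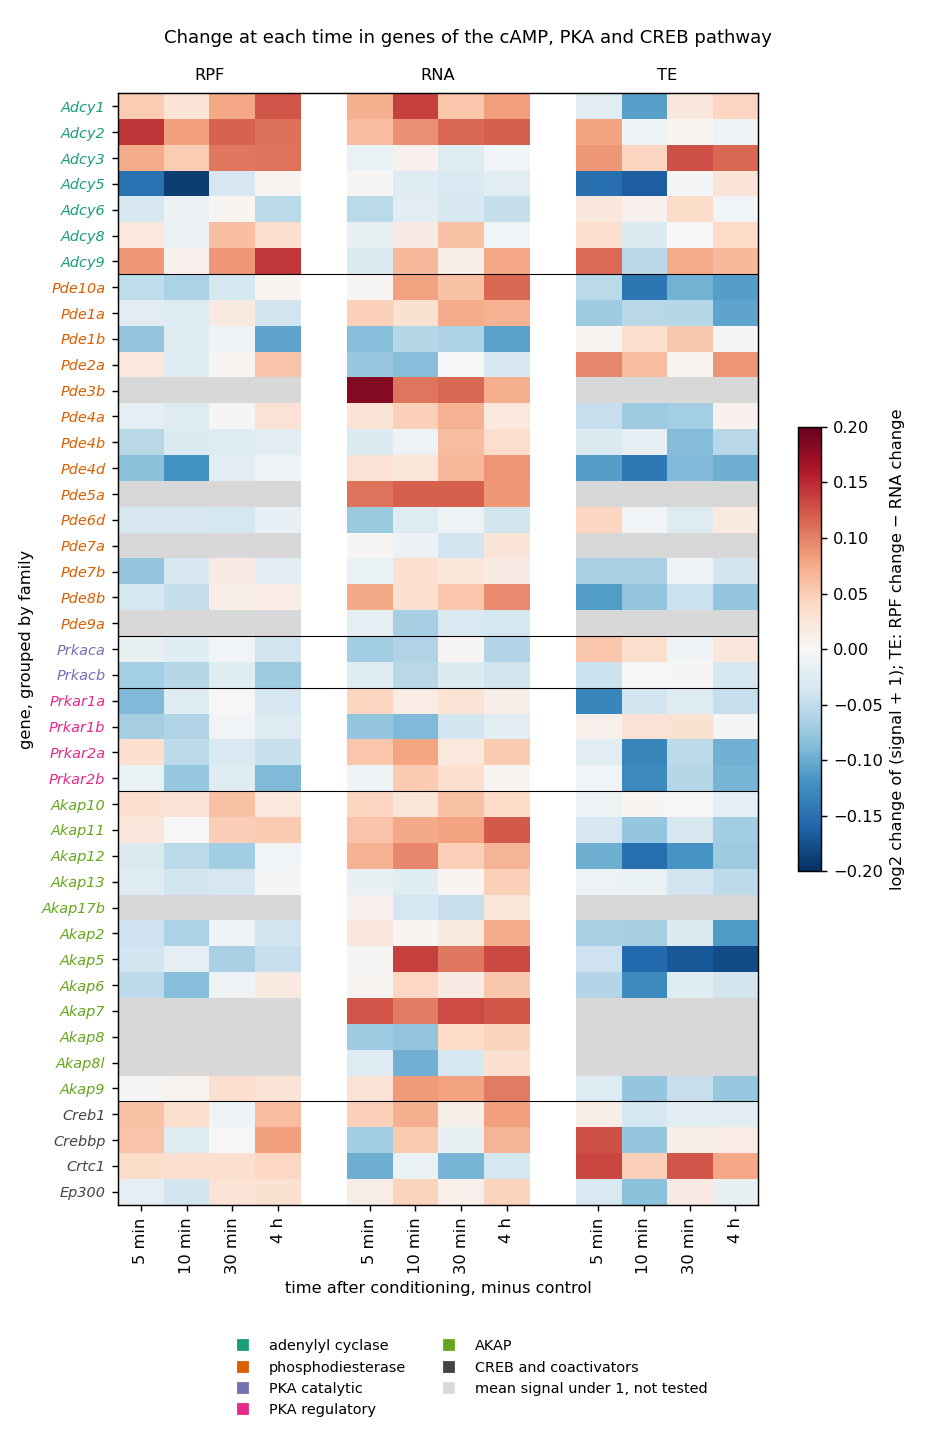
Log2 change of each tested gene (rows, grouped by family) at each time after conditioning minus control (columns), in RPF, RNA and TE; grey marks genes whose mean signal was under 1 and which were not tested. Colours stay pale in most cells, with the fitted changes between −0.19 and 0.14 in RPF and between −0.11 and 0.18 in RNA.

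Among the adenylyl cyclases, 7 of 8 were tested in each kind of library and Adcy7 lay below the filter in both. Adcy5, a cyclase inhibited by calcium and best known from the striatum, gave the smallest p of the pathway in footprints. Its RPF signal was 2.84, 2.77 and 2.48 at 10 min, against 3.33, 3.30 and 3.02 in controls. All 3 libraries at 10 min, and also all 3 at 5 min (3.01, 2.81 and 2.59), lay below the control library of the same number, and neither time overlapped with controls. At 5 min the gap was narrow, with 3.01 against a lowest control of 3.02. Adcy5 was named for its small p, as were Pde3b and Akap7 below, so a separation of their libraries restates that choice. How many of all genes lay so apart was not counted, for Adcy5 or for the genes below. The log2 change was −0.19 ± 0.09 (SE) at 10 min, with an unadjusted p of 0.0492 by limma that does not pass adjustment (adjusted p = 1.00), and with the block the unadjusted p was 0.00132. At 30 min (3.13 ± 0.34) and 4 h (3.25 ± 0.52) the means were close to that of control (3.22 ± 0.17, SD, n = 3 each). Adcy5 RNA showed no such dip, at 7.56, 6.71 and 6.12 at 10 min and 7.95, 6.71 and 6.18 in controls, and the TE change of −0.16 ± 0.16 did not pass. The 6 listed striatal markers, of 10 looked for, summed to an RPF signal of 11.4 to 12.04 at 10 min and of 10.8 to 13.2 in controls, so the groups overlapped in them. Pairs of the same number were not compared in these markers, and the part of striatal tissue in the Adcy5 values was not tested.

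Adcy1, a cyclase activated by calcium and calmodulin, had the highest RNA signal relative to its footprints of all these genes. Its RNA signal was 116, 94.8 and 87.3 in the control libraries and its RPF signal 13.2, 13.3 and 12.1. After conditioning the footprint mean stood at 13.4, 13.2, 13.7 and 14.2 at 5, 10 and 30 min and 4 h, and the change at 4 h was 0.13 ± 0.11 (adjusted p = 1.00). The libraries of each time overlapped with controls. Adcy2, another neuronal cyclase, had the smallest p among higher footprint values at 5 and 10 min. Its signal at 5 min was 18.5, 14.6 and 16.9, against 16.4, 12.6 and 16.1 in controls, a change of 0.14 ± 0.12 (adjusted p = 1.00), and the groups overlapped. For that change the SE with the block was 0.07 and the unadjusted p by limma 0.0543. With the block, unadjusted p-values for RPF at 4 h were 0.0311 for Adcy1 and 0.0442 for Adcy9, both higher, and neither passed adjustment (0.752 for both).

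The phosphodiesterase symbols cover enzymes with different substrates. Pde4, Pde7 and Pde8 enzymes are specific for cAMP, Pde1, Pde2, Pde3, Pde10 and Pde11 enzymes act on cAMP and cGMP, and Pde5 and Pde9 on cGMP, whereas Pde6d encodes a carrier of prenylated proteins. Of 18 genes, 10 were tested in RPF and 14 in RNA. Pde3b, known as the insulin-responsive cAMP phosphodiesterase, gave the smallest p of the pathway in RNA at 5, 10 and 30 min. Its RNA signal was 2.21, 2.27 and 2.18 at 5 min, against 1.89, 1.66 and 1.97 in controls. All libraries at 5, 10 and 30 min lay above the 3 controls, the lowest of them at 2.00. The log2 change at 5 min was 0.18 ± 0.05 with an unadjusted p of 0.00144 and an adjusted p of 1.00 by limma (0.654 with the block). Pde3b footprints lay below the filter, with a mean RPF signal of 0.56 ± 0.05 at 5 min and 0.51 ± 0.02 in controls. Without the filter, the change at 5 min was 0.05 ± 0.05 in RPF and −0.14 ± 0.07 in TE. The unadjusted p-values by limma were 0.342 and 0.0534.

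Pde4d, the cAMP-specific enzyme whose human orthologue is a target of rolipram-type inhibitors, had an RPF signal of 2.17, 1.90 and 1.94 at 10 min, against 2.41, 2.20 and 2.17 in controls. The highest 10 min library and the lowest control were level to 3 digits, and the log2 change was −0.12 ± 0.07 without passing. Its RNA was 5.91 ± 0.32 at 10 min and 5.80 ± 0.27 in controls. Pde1b, a calmodulin-dependent enzyme, had the smallest p among lower RNA values at 4 h, with 5.62, 4.84 and 5.41 against 5.57, 5.58 and 6.14 in controls and a change of −0.11 ± 0.07 (adjusted p = 1.00). Pde9a was the corresponding gene at 10 min, at −0.07 ± 0.05. In TE the genes with the smallest p among lower values were Pde8b at 5 min (−0.11 ± 0.09) and Pde10a at 30 min (−0.09 ± 0.09). None of these changes passed the threshold.

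The subunits of PKA were close to control throughout. Prkaca, the main catalytic subunit, had RPF signals of 18.8, 20.5 and 21.5 in controls, 19.1, 19.98 and 21.03 at 5 min, 19.2, 18.7 and 21.9 at 10 min, 19.3, 19.5 and 21.7 at 30 min and 19.7, 18.1 and 21.5 at 4 h. Prkacb, the second catalytic subunit, had 17.8, 16.01 and 16.7 in controls, 16.5, 15.99 and 15.5 at 5 min, 16.6, 15.7 and 16.1 at 10 min, 17.5, 15.1 and 16.9 at 30 min and 17.8, 13.9 and 16.3 at 4 h. Every time point overlapped with control in both genes, and the RPF changes ran from −0.04 to 0.00 for Prkaca and from −0.07 to −0.02 for Prkacb, with SE 0.09. Prkacb footprints at 5 and 10 min were lower than control in all 3 same-numbered pairs, without passing in the fit with the block. How many of all genes were lower in all 3 pairs was not counted. In RNA, Prkaca averaged 10.3 ± 0.44 in controls and 9.75 ± 0.45, 9.82 ± 0.30, 10.3 ± 0.86 and 9.83 ± 0.61 at 5, 10 and 30 min and 4 h. Prkacb RNA averaged 24.8 ± 1.03 in controls and 24.3 ± 0.89, 23.8 ± 0.94, 24.3 ± 1.31 and 24.1 ± 1.35 at those times, and no change of either gene passed.

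The regulatory subunits divide into type I (Prkar1a, Prkar1b), found largely in the cytosol, and type II (Prkar2a, Prkar2b), mostly bound to AKAPs. Prkar1a footprints averaged 28.8 ± 1.90 in controls and 27.0 ± 1.71, 28.3 ± 1.24, 28.8 ± 1.27 and 28.2 ± 2.55 at 5, 10 and 30 min and 4 h. Prkar1b, the neuronal type I subunit, averaged 22.5 ± 0.64 in controls and 21.4 ± 0.55, 21.5 ± 1.45, 22.4 ± 1.95 and 22.2 ± 2.88 at those times. Prkar2a averaged 2.76 ± 0.06 in controls and 2.84 ± 0.08, 2.62 ± 0.11, 2.68 ± 0.19 and 2.64 ± 0.11 at those times. For each of these 3 genes no change passed the test, with the block or without, although footprints of Prkar1a at 5 min and of Prkar1b at 5 and 10 min were lower than control in all 3 same-numbered pairs. The share of all genes with such pairs was not counted. Prkar2b, the type II subunit of neurons and fat, had the smallest p among lower footprint values at 4 h: 2.55, 2.13 and 2.35, against 2.55, 2.53 and 2.57 in controls. That change was −0.09 ± 0.06 (adjusted p = 1.00), and the first replicates of both groups were level to 3 digits. At 5, 10 and 30 min its means were 2.52 ± 0.11, 2.37 ± 0.15 and 2.50 ± 0.22. In RNA the 5 group means ran from 26.7 to 27.5 for Prkar1a, from 13.3 to 14.2 for Prkar1b, from 4.36 to 4.66 for Prkar2a and from 2.46 to 2.61 for Prkar2b. Prkar2a gave the smallest p among lower TE values at 10 min (−0.13 ± 0.07) and 4 h (−0.10 ± 0.07), and neither passed.

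AKAPs tether PKA to different places, and 8 of 12 were tested in RPF and 12 in RNA. Akap7, whose products anchor PKA at the plasma membrane, had the smallest p among higher RNA values at 4 h. Its RNA signal was 6.17, 6.69 and 6.43 at 4 h, against 5.77, 5.90 and 5.78 in controls, and the groups did not overlap. The change was 0.12 ± 0.06 at 4 h and 0.13, 0.10 and 0.13 at 5, 10 and 30 min, with an adjusted p of 1.00 at 4 h (0.181 with the block). Libraries at 5 and 30 min also lay clear of controls, and those at 10 min overlapped with them. Akap7 footprints lay below the filter. Without the filter, their change was −0.02, −0.05, −0.03 and −0.04 (SE 0.06) at 5, 10 and 30 min and 4 h. The TE change of Akap7 at 4 h was −0.16 ± 0.08 without the filter, with an unadjusted p of 0.0643 by limma. Akap5, the anchoring protein of the postsynaptic density (AKAP79 in humans, AKAP150 in mice), had RNA values of 7.12, 5.86 and 5.58 at 4 h, against 6.91, 5.09 and 4.77 in controls, and footprint values of 3.56, 3.01 and 3.32 against 3.77, 3.13 and 3.42. In each pair with the same number the RNA was higher and the footprints lower at 4 h. The fitted change at 4 h was higher in 66.2% of all genes in RNA and in 51.2% in RPF. How many genes went this way in all 3 pairs was not counted. The TE change of Akap5 at 4 h was −0.18 ± 0.19, with an adjusted p of 1.00 (0.725 with the block). At 30 min Akap5 had the smallest p among lower footprint values (−0.06 ± 0.08) and Akap10, which binds both types of regulatory subunit, that among higher ones (0.06 ± 0.05).

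Creb1 footprints were 2.15, 2.21 and 2.43 in controls, 2.33, 2.34 and 2.52 at 5 min, 2.15, 2.52 and 2.36 at 10 min, 2.23, 2.34 and 2.16 at 30 min and 2.19, 2.54 and 2.49 at 4 h. Creb1 RNA averaged 6.30 ± 0.56 in controls and 6.55 ± 0.70, 6.66 ± 0.30, 6.36 ± 0.42 and 6.72 ± 0.41 at those times. All 4 times overlapped with controls in both. Against the control library of the same number, Creb1 was higher in all 3 pairs at 5 min and 4 h in RPF and at 5 min, 10 min and 4 h in RNA, and none of these changes passed with the block either. At those times the fitted change was higher in 47.3% and 51.2% of all genes in RPF. In RNA it was higher in 60.04%, 71.02% and 66.2% of them. How many genes were higher in all 3 pairs was not counted. Of the acetyltransferase genes, Crebbp had footprint means of 8.29 ± 0.78 in controls and 8.70 ± 1.32, 8.19 ± 1.39, 8.32 ± 1.34 and 8.86 ± 1.20 at those times. Ep300 had 3.52 ± 0.27 in controls and 3.47 ± 0.29, 3.41 ± 0.41, 3.61 ± 0.40 and 3.62 ± 0.42. Their RNA means over the 5 groups ran from 3.97 to 4.44 and from 3.82 to 3.97, and none of their changes passed. Crtc1, the coactivator abundant in hippocampal neurons, had the smallest p among lower RNA values at 5 and 30 min and among higher TE values at all 4 times. Its RNA signal was 2.14, 2.29 and 2.04 at 5 min and 2.24, 2.09 and 2.18 at 30 min, against 2.20, 2.46 and 2.48 in controls, so both times overlapped with controls, while its footprints averaged 5.42 ± 0.28 and 5.41 ± 0.30, against 5.27 ± 0.39. The TE changes were 0.13, 0.05, 0.13 and 0.08 (SE 0.08) and none passed. Crtc2, which controls gluconeogenic genes in liver, lay below the filter in both kinds, with an RNA signal of 0.255 to 0.380 at 30 min and 0.352 to 0.472 in controls.

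**Figure D2:**
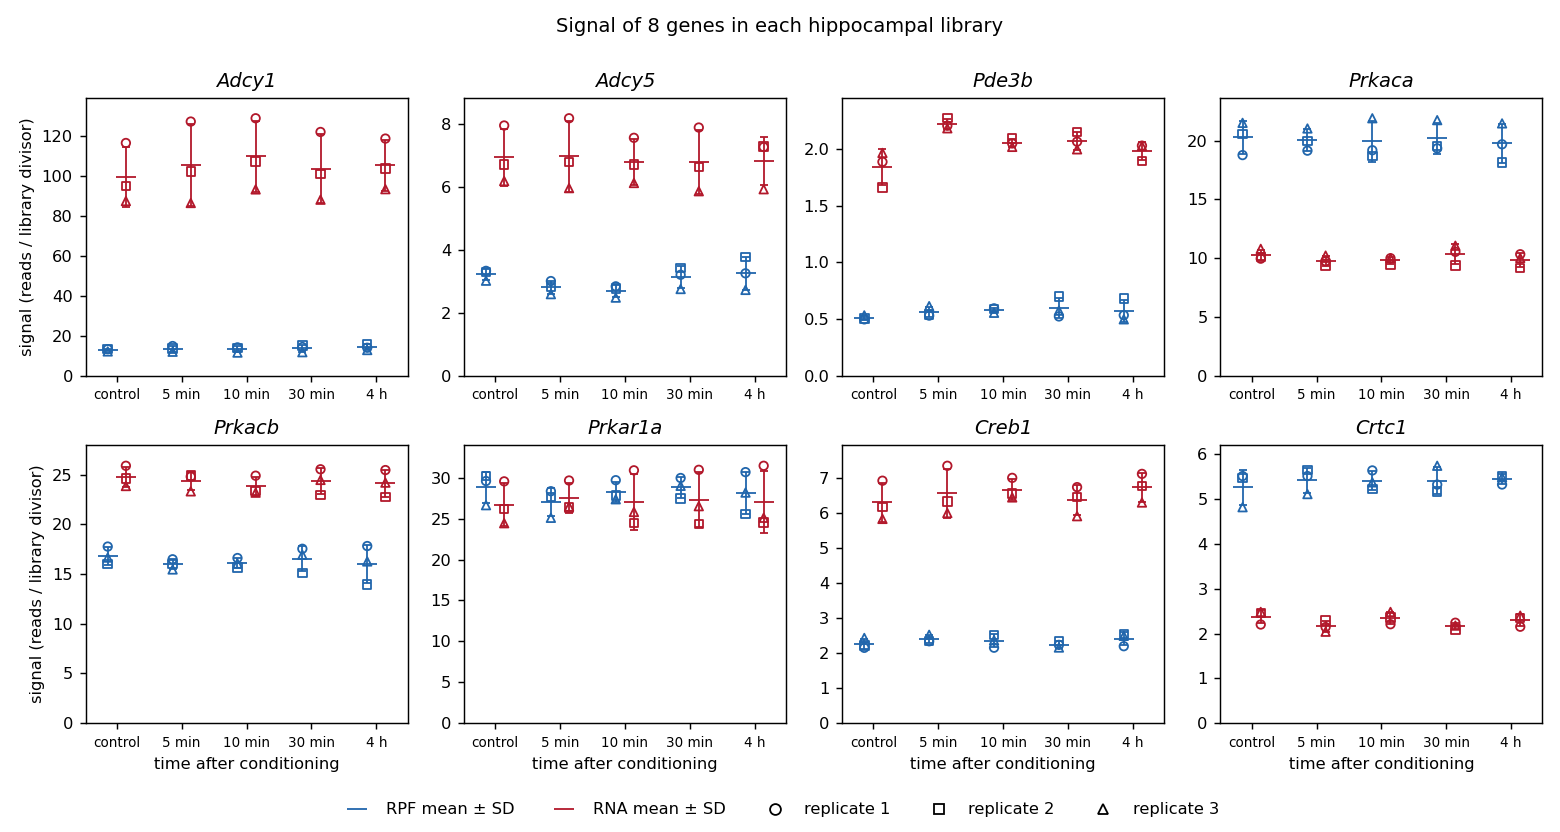
Signal in every hippocampal library for 8 genes (RPF blue, RNA red), with each library as an open symbol by replicate number and each group's mean ± SD as a bar (n = 3). Symbols of the same number keep their order across times in Adcy1 RNA, where replicate 1 is the highest at all 5 times, and Pde3b RNA at 5 min (2.18 to 2.27) stands above control (1.66 to 1.97).

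Genes of the pathway outside these symbols were counted in 5 lists. Receptors and G proteins (15 of 20 listed, 13 tested in RNA), PKA inhibitors and other cAMP effectors (9 of 10 listed, 5 tested), and PKA substrates and phosphatases (12 of 12) had no gene past the threshold, with or without the block, in either direction. Among CREB target genes, of which 21 of 25 were listed and 14 tested in RPF, none passed without the block, although 4 had an unadjusted p under 0.05 at 30 min, all higher (0.203% of all genes were higher). With the block 4 passed at 30 min, all higher. Arc, which encodes a synaptic capsid-like protein, changed by 0.70 ± 0.07 (adjusted p = 0.000190), and Nr4a1, Egr1 and Junb, which encode inducible transcription factors, by 0.58 ± 0.08, 0.46 ± 0.06 and 0.43 ± 0.06 (adjusted p = 0.00246 for each). The SE given here are from the fit with the block, and that of Arc was 0.12 without it. These 4 were all the genes that passed there (0.0506% of 7898). In RNA, with the block, Arc and Junb were the CREB targets past the threshold at 5, 10 and 30 min, of 13 tested (0.0372%, 0.0248% and 0.0248% of all genes passed). Without the block neither passed in RNA (adjusted p = 1.00 at each time). Arc RNA changed by 0.33, 0.37 and 0.36 and Junb RNA by 0.30, 0.37 and 0.30, and neither passed at 4 h. Nr4a1 also stands in the list of CREB kinases, relatives and coactivators (17 of 19 listed, 12 tested in RPF), in which it was the only gene past the threshold. The list of CREB targets was drawn up with earlier results of these libraries known and holds all 4 genes called at 30 min, so its counts and its median are no independent evidence. At 30 min the median footprint change was 0.11 over the 14 CREB targets and 0.00 over the 35 pathway genes, against 0.01 over all genes.

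**Figure D3:**
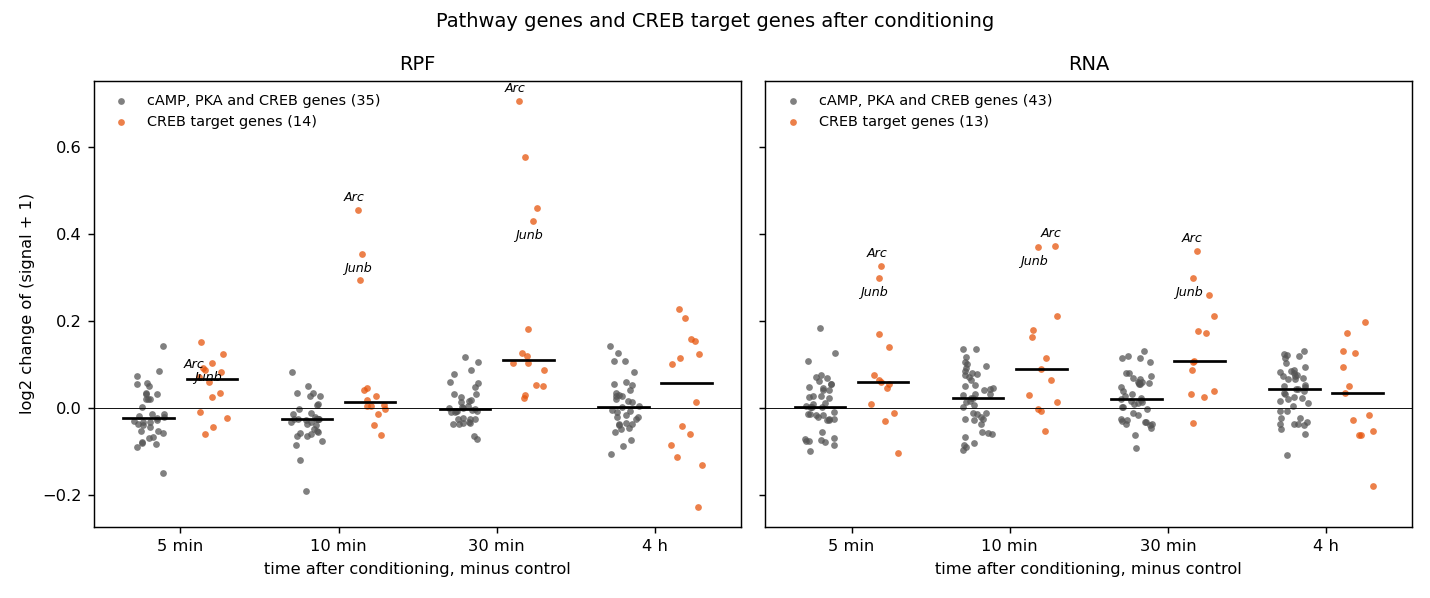
Log2 change at each time minus control, without the block, for the cAMP, PKA and CREB genes (grey) and for CREB target genes (orange), in RPF (left) and RNA (right); points are genes and bars their medians. At 30 min in RPF, Arc (0.70) and Junb (0.43) lie above all 35 pathway genes, which stay at or below 0.12.

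The DNA element bound by CREB was looked up in the RefSeq promoters of GRCm38.p6, from 250 bases before to 50 bases after the start of each gene, because it is the link between the kinase and its target genes. A gene with several of the 32851 promoter entries was counted if any of them matched. The share of all genes covers every gene with an entry, listed in tissue or not. The full element, TGACGTCA, reads the same on both strands. It lay in 1 of the 40 pathway genes with a promoter entry (2.5%), in 5 of 19 CREB targets (26.3%) and in 549 of 27025 genes (2.03%). The half-site TGACG, or CGTCA on the other strand, which every full element contains, lay in 15 of the 40 (37.5%), in 17 of 19 targets and in 23.05% of all genes. The pathway gene was Prkar1a, and its 30-base window is shown beside those of 5 CREB targets, in the direction of the gene, with the element in capitals.
Prkar1a, chr11:109650889-109650918, plus strand: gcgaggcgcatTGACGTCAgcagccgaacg
Sst, chr16:23890874-23890903, minus strand: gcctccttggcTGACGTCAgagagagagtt
Scg2, chr1:79440076-79440105, minus strand: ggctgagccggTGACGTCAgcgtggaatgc
Pcsk1, chr13:75089768-75089797, plus strand: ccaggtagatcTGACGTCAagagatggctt
Btg2, chr1:134079303-134079332, minus strand: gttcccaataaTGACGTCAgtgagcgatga
Dusp1, chr17:26508597-26508626, minus strand: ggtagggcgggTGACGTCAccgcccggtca
The element began 49 bases before the start in Prkar1a and 48 in Sst. Neither Prkar1a nor any of the 3 of these targets tested in RPF and the 4 tested in RNA passed the threshold, with the block or without. A match of letters is a description of the window and no measure of binding.

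These genes differed from each other in the ratio of footprints to RNA, as genes of the whole table did. Baseline TE, averaged over the 3 control pairs, is the log2 ratio of RPF + 1 to RNA + 1, set relative to the median gene of that pair. The sources used here do not say whether footprints and RNA reads were counted over the same stretch of a transcript, and its part in these values was not tested. Over the 35 genes tested in both kinds, 20 lay below the median gene (57.1%, against 50.04% of 7103 genes). The middle 50% of the 35 ran from −0.61 to 0.21, and that of all 7103 genes from −0.45 to 0.44. Adcy1 was lowest at −2.89 ± 0.16 (SD, n = 3), with control pairs at −3.07, −2.78 and −2.81. Only 10 of the 7103 genes had a lower value. Over all 15 tissue pairs it ran from −3.09 to −2.65. The other cyclases spread from Adcy5 at −0.95 ± 0.10 to Adcy3, the cyclase of olfactory cilia and neuronal primary cilia, at 0.54 ± 0.07.

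Among the phosphodiesterases baseline TE ran from Pde4d at −1.10 ± 0.08 to Pde6d at 0.91 ± 0.20. AKAPs lay low, with 7 of 8 below the median gene and a median of −0.57. They ran from Akap13 at −1.14 ± 0.13 to Akap12 at 0.03 ± 0.10. In the CREB group Creb1 stood at −1.20 ± 0.15, Ep300 at −0.13 ± 0.11, Crebbp at 0.80 ± 0.07 and Crtc1 at 0.85 ± 0.16. The factor and 2 of its coactivators thus lay on opposite sides of the median gene in all 3 control pairs.

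The 2 catalytic subunits of PKA differed in the same way. Prkaca stood at 0.88 ± 0.04 and Prkacb at −0.57 ± 0.05 (SD, n = 3). Mean control signals were 20.3 RPF and 10.3 RNA for Prkaca, and 16.8 RPF and 24.8 RNA for Prkacb. The difference, 1.45 ± 0.09 log2 units, had the same sign in 15 of 15 tissue pairs, which ran from 1.34 to 1.63. Among regulatory subunits, Prkar1b stood at 0.59 ± 0.12, Prkar1a at 0.07 ± 0.09, Prkar2b at −0.01 ± 0.09 and Prkar2a at −0.55 ± 0.01. Prkar1a and Prkar2b differed by less than the spread of their control pairs.

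Culture and stem cells gave 1 pair of libraries each, so the values below have no replicates and their 95% exact binomial intervals cover counting error only. In culture Prkaca exceeded Prkacb in TE by 1.00 log2 units, and in stem cells by 0.01. Stem cells had Prkaca at −0.18 (−0.28 to −0.08) and Prkacb at −0.19 (−0.29 to −0.09). Their Prkar1a had the highest TE of any pathway gene in any sample, at 1.82 (1.74 to 1.90), from 13109 RPF and 899 RNA reads. In culture Prkar1a stood at 0.55 (0.50 to 0.60), against 0.07 ± 0.09 in control hippocampus. Ep300 followed the same order, with 1.41 (1.33 to 1.49) in stem cells, 0.21 (0.08 to 0.34) in culture and −0.13 ± 0.11 in hippocampus. Pde6d was lowest in stem cells, at −0.18 (−0.29 to −0.08), and stood at 1.14 (1.00 to 1.27) in culture and 0.91 ± 0.20 in hippocampus. These 3 genes had the widest spread of TE over the sample types among the 14 that passed the filter in all of them.

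Adcy1 stayed low in culture at −2.71 (−2.80 to −2.62), within the range of the tissue pairs. In stem cells its TE was −1.37 (−1.45 to −1.28), from 145 RPF reads and with a signal below the filter. Creb1 stood at −1.15 (−1.27 to −1.02) in culture and at −0.03 (−0.15 to 0.08) in stem cells, against −1.20 ± 0.15 in hippocampus. Of 31 pathway genes tested in tissue and culture, TE in culture was above the range of the 15 tissue pairs in 12, below it in 9 and within it in 10. Over all 6064 such genes 28.7% were above and 38.2% below. In stem cells 8 of 15 were above and 3 below, where 35.9% and 44.6% of 4501 genes were. Thus genes outside the tissue range were common in the whole table, and the pathway genes are given as values only.

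Of the 49 genes in the tissue tables, 30 were listed in all 3 sample types. The 14 that the stem cell table did not list were Adcy2, Adcy5, Adcy8, Akap6, Crtc1, Pde10a, Pde11a, Pde1a, Pde1c, Pde3a, Pde4b, Pde7b, Pde8b and Prkar1b. The culture table did not list Adcy7, Crtc2, Pde11a, Pde5a, Pde7b, Pde8a and Pde9a. Akap1, the mitochondrial anchor, was listed in stem cells and Akap3, known from sperm, in culture, and neither in tissue. The sources used here do not say what decided whether a gene was listed, so no level was read from it. Akap12 (gravin) had an RNA signal of 59.0 in stem cells and 2.78 in culture, and Akap8, a nuclear anchoring protein, of 19.3 and 1.06. These tables were scaled separately, and no test was made between them.

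**Figure D4:**
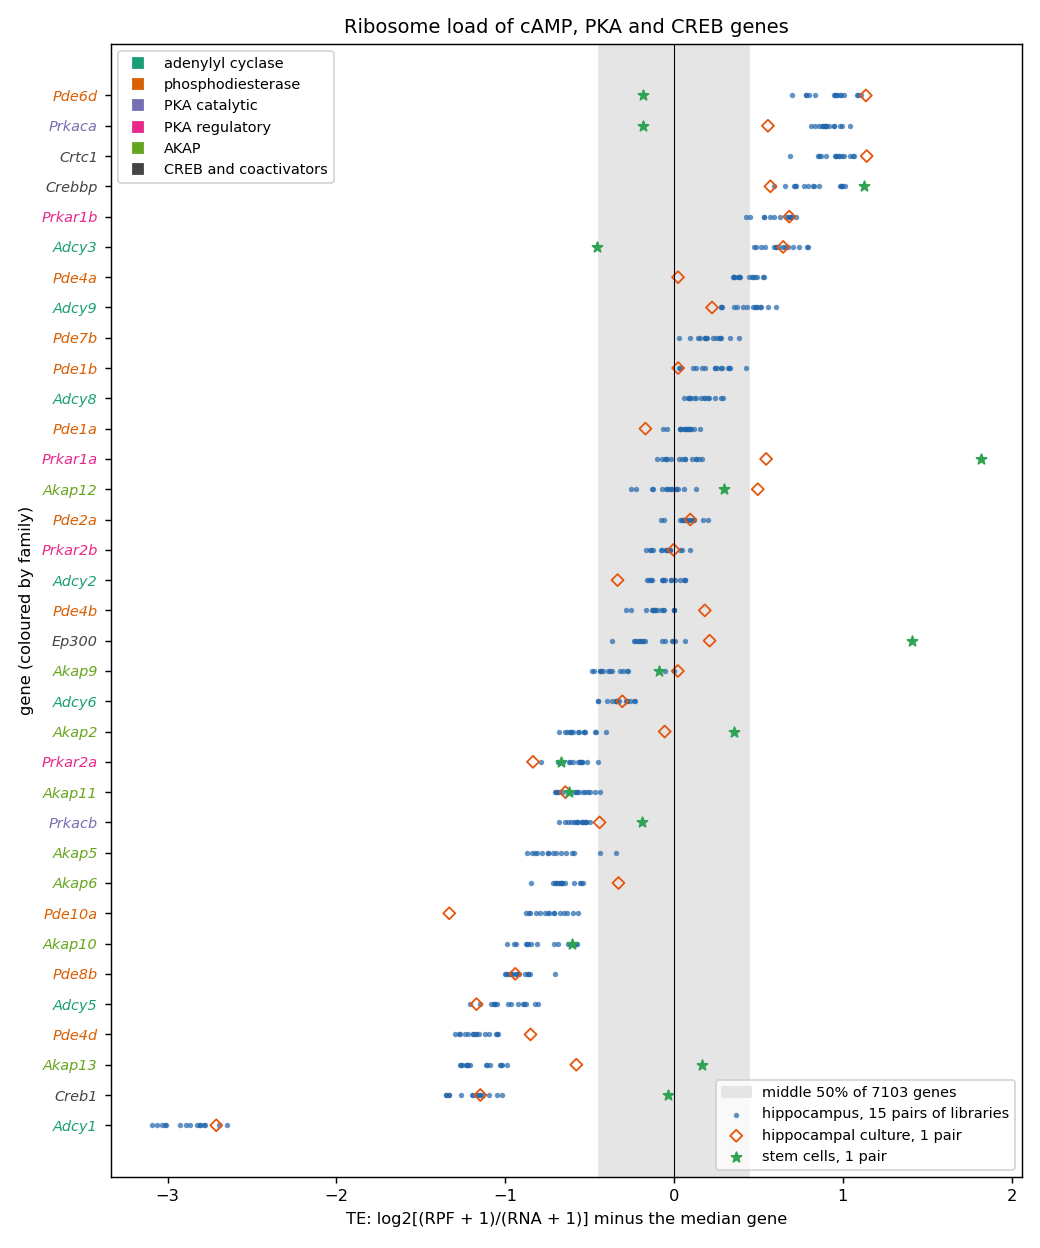
Baseline TE (log2 ratio of footprints to RNA minus the median gene) of the 35 genes tested in both kinds of library, as 15 pairs of hippocampal libraries (blue), 1 pair from culture (open diamonds) and 1 from stem cells (stars); the grey band holds the middle 50% of 7103 genes. Adcy1 lies apart on the left near −2.9, Prkaca and Prkacb lie on either side of 0 in hippocampus, and the stem cell values of Prkar1a (1.82) and Ep300 (1.41) lie far to the right of their tissue pairs.

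More of these genes passed a test over the replicate number than over the time, where 0 passed in the same fit. A moderated F-test over the number, in a fit that held the group, called 26 of 35 pathway genes in RPF (73.1% of all genes) and 32 of 43 in RNA (65.5%), with Benjamini-Hochberg adjustment over all genes. The pathway thus varied at about the rate of the table as a whole. Number 1 was the highest in 19 of the 26 and 24 of the 32. The same share over all genes was not counted, so this is not read as a trait of the pathway. Akap9, a large anchoring protein of the Golgi and centrosome, had the widest range, with mean RNA signals of 12.9, 8.19 and 7.31 for numbers 1, 2 and 3 over the 5 groups. Its libraries of number 1 (12.6 to 13.1) lay above all libraries of numbers 2 and 3 (6.39 to 8.47). Akap9 footprints had means of 9.23, 6.28 and 6.37, and those of Akap11, which binds PKA and glycogen synthase kinase, 27.7, 19.6 and 21.4.

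Adcy1 RNA averaged 123, 102 and 89.6 over numbers 1, 2 and 3, and Akap5 RNA 7.17, 5.50 and 5.15. Pde6d ran in the other direction, with RNA means of 0.97, 1.05 and 1.75 and footprint means of 2.95, 3.24 and 3.82. Adcy9 and Crebbp footprints averaged 13.4, 10.4 and 10.6, and 9.84, 7.88 and 7.70. In contrast Prkar2a and Crtc1 did not pass this test in either kind (adjusted p = 0.322 and 0.302 in RNA). Marker lists of several cell types differed by number too. The choroid plexus markers had summed RPF signals of 1321 to 2101, 927 to 1908 and 69.2 to 497 for numbers 1, 2 and 3. The 7 astrocyte markers had 466 to 511, 326 to 427 and 373 to 438, and the 6 microglia markers 51.8 to 57.2, 36.6 to 47.3 and 45.04 to 49.8, so libraries of number 1 lay above all others in both lists. Striatal marker sums overlapped, at 11.4 to 12.9, 12.04 to 13.2 and 10.8 to 12.3. The part of these cell types in the values above was not tested, and the sources used here do not say what the number stands for.

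**Figure D5:**
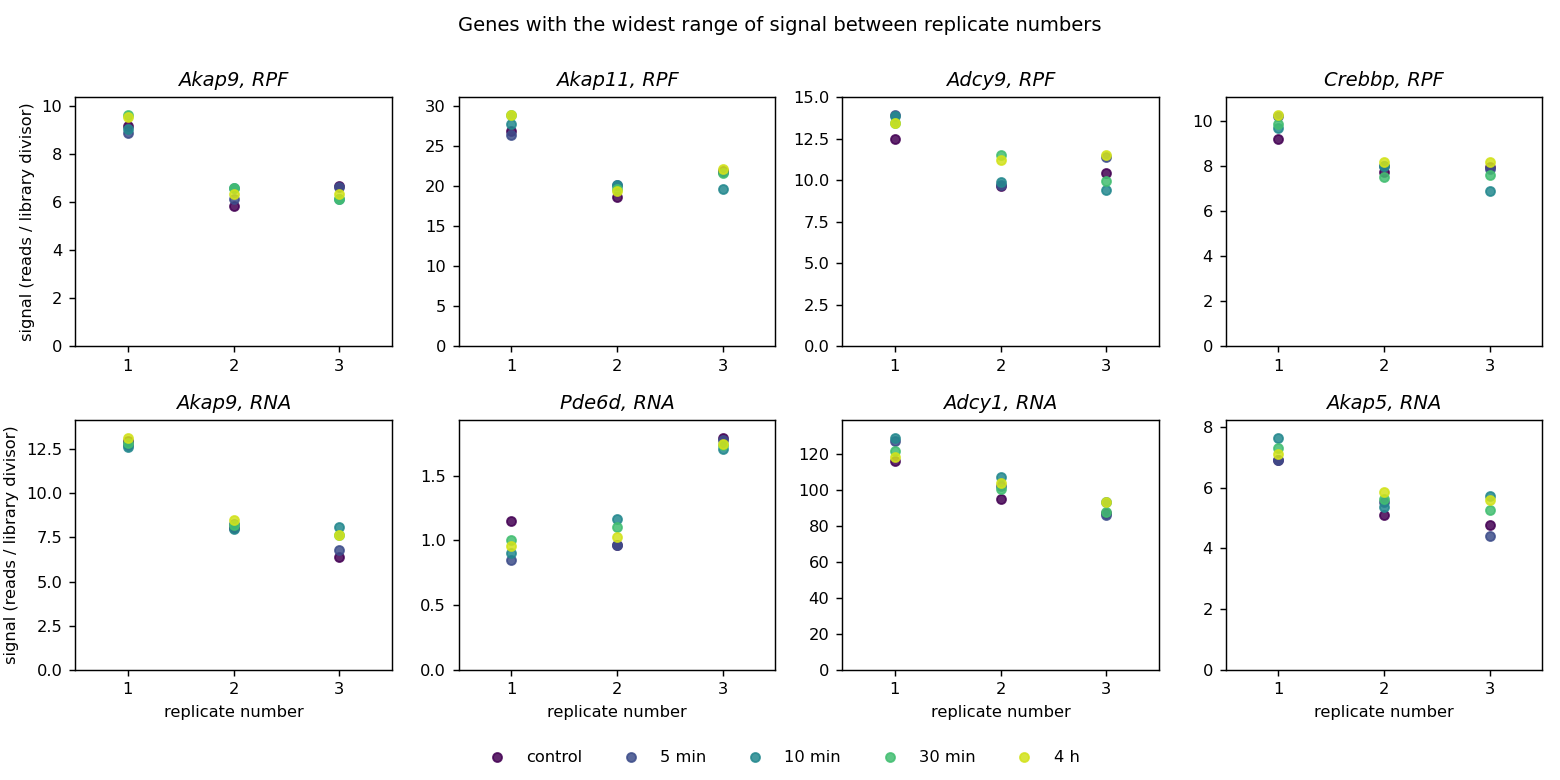
Signal of the 4 pathway genes with the widest range between replicate numbers in RPF (top) and RNA (bottom), plotted by replicate number with 1 point for each of the 5 groups. In Akap9 RNA all libraries of number 1 (12.6 to 13.1) lie above those of numbers 2 and 3, and in Pde6d RNA all libraries of number 3 (1.70 to 1.79) lie above those of numbers 1 and 2.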

How the data were processed

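RPF and RNA libraries were compared as grouped by the labels. The submitters' processing notes name CASAVA 1.8.2, Bowtie 1.1.1 and the build mm9, without their settings. The deposited signal is not explained in the file headers; multiplied by 1 number per library, the authors' values lay within 0.001 of whole reads. The sources used here do not say how that number was set, nor how reads on several genes, strands or overlapping genes were counted.

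Log2(signal + 1) was computed from the deposited values where a gene averaged 1 or more over 15 libraries, and was tested with limma 3.58.1 in R 4.3.3 (eBayes with trend, 5 groups, no block), 2-sided, with Benjamini-Hochberg adjustment. The tests were checked on simulated data whose changes were larger than those fitted for the pathway genes. Recovery of them was required only of the fit with the block. The check therefore does not show that changes as small as those fitted here would be found. The added 1 compresses fold changes, the more so the lower the signal, also for tested genes with signals of a few units.

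Same-numbered libraries deviated together (r = 0.402 to 0.912 in RPF and 0.268 to 0.840 in RNA, over 12 same-numbered pairs with control each; at most 0.130 and 0.0991 between different numbers), so values with the number as a block are given where they change a call. The mean of each group was subtracted before r was taken. A positive r with the same number then pushes r with other numbers down, so part of that gap is built in. No 2 replicates agreed within sampling noise.

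Members and gene lists were chosen with earlier results of these data known. All PKA subunits and CREB genes were named, with the gene of smallest p per direction and comparison, the extremes of TE per family and the widest ranges between replicate numbers; Pde4d, Akap12, Akap8 and, with the block, Adcy9 and Akap11 were added after their values were seen. Sequences are from RefSeq (GRCm38.p6); no coordinates were converted.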

Additional observations from a re-analysis of the deposited data

How the results depend on the processing

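No pathway gene passed the threshold in any of 312 counts over times, kinds of library, F-tests and alternatives: the replicate block, a pseudocount of 0.1, no filter on low values, TMM scaling, 2 groups only, voom on the recovered reads (chosen after the data were seen) and each library left out. Counts over all genes, 0 without the block at the filter used and with all libraries, did move. With the replicate block, which pairs the libraries by number, limma called 4 genes in RPF at 30 min, 3, 2, 2 and 1 in RNA at 5, 10 and 30 min and 4 h, 1 in TE at 5 min, and 6 (RPF) and 5 (RNA) by the F-test over times; the block changed no other call. With neither filter nor block it called 1 at 10 min and 1 at 30 min in RPF, and 2 and 1 by the F-test. Voom with the block called 1 and 4 in RPF at 5 and 30 min, 2 and 1 in RNA at 10 min and 4 h, and 6 and 3 by the F-test. No filter with the block gave 5 and 7 in RPF at 10 and 30 min, 3, 5, 4 and 4 in RNA, and 10 and 19 by the F-test. Leaving out 1 library gave 0 to 1 in RPF at 30 min and 0 to 1 by the F-test in RPF, the 1 without replicate 2 of 5 min. Over 536 values for the 24 named changes, 4 reversed, none past the threshold: Adcy2 RPF at 10 min ran from −0.033 to 0.17 with 1 library left out (−0.033 without control replicate 2, −0.015 without 10 min replicate 1), and Crtc1 TE at 10 min from −0.028 to 0.11 (−0.028 without control replicate 3, −0.0088 without 10 min replicate 1). A pseudocount of 0.1 moved baseline TE by up to 0.40 (median 0.10). Count models (edgeR, DESeq2) and footprint density per codon, both planned, were not run; voom took the place of the count models, and no protein lengths were used here. In RPF 14 pathway genes and in RNA 6 lay below the filter, with as few as 33 and 61 reads in a library. The added 1 compresses their changes the most, and how small a change could be found in them was not tested.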
